A study of Mus musculus with 8 samples.

Results

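The 46 genes described here build the route by which new proteins enter the endoplasmic reticulum (ER) and leave it for the Golgi. They were chosen by name, as parts of the ER translocation machinery and of the COPI and COPII coats. The choice was made with earlier results of these data known. The set makes up 46 of the 23997 genes in the deposited table. RNA was sequenced from splenic marginal zone B cells of mice of strain C57BL/6, lymphocytes that lie at the edge of the white pulp and respond early to antigen in blood. The labels describe 8 libraries, 4 with the genotype ACKR3- (titled GFP-) and 4 with the genotype ACKR3+ (titled GFPposi). They name no allele or promoter for GFP and no age, treatment or time. ACKR3 is an atypical chemokine receptor that takes up CXCL12. The table gives a single pooled estimate of fragments per gene for each of 2 conditions, q1 and q2, with its variance. Neither name matches a label, so no value below is tied to ACKR3+ or ACKR3- cells. Ackr3 itself had 1030 fragments in q1 and 149 in q2. With 1 value per condition no difference could be tested, and every difference below is a description of the 2 columns.

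Proteins bound for secretion or for a membrane are recognised by the signal recognition particle as their signal sequence leaves the ribosome, and are handed to the Sec61 channel in the ER membrane. There the signal peptide is removed and sugar chains are attached. COPII-coated vesicles carry finished cargo forward to the Golgi, and COPI-coated vesicles return escaped ER proteins and recycle the machinery. B cells that turn into plasma cells enlarge this route as they begin to secrete antibody, under control of the transcription factor XBP1.

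Nearly all of these genes had slightly more fragments in q2 than in q1. Of the 46 genes, 42 were higher in q2, a direction shared by 50.2% of the 9582 genes compared, those reaching 100 fragments in at least 1 column. All 46 genes passed that minimum, the lowest being Sec24d, the only member below it in a column. Summed over the 46 genes, 76798 fragments in q1 stood against 88800 in q2, or 0.455% and 0.533% of all fragments. The median log2 ratio of q2 over q1 (with 1 added to each value) was 0.20, beside 0.00053 for all genes compared. By at least 25%, 11 members were higher in q2, beside 6.90% of all genes, and 0 were higher in q1, beside 4.59%. Sec24d was the only member at least 2-fold higher in q2 (1.84% of all genes were), and 0 were 2-fold higher in the other direction (0.438%). The SD given after each ratio comes from the variances the authors deposited, which mostly follow a gene's count; the spread between mice cannot be seen in them. By more than 2 of these SD, 8 members were higher in q2, beside 4.15% of all genes, and 20 members lay within 1 SD of equality, or 43.5% against 80.5% of all genes. In the sentences that follow, fragments are given for q1 first and then q2, and the value after them, with its SD, is the log2 ratio of q2 over q1. In bulk RNA a larger number of cells of a type and more RNA per cell cannot be told apart.

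**Figure D1:**
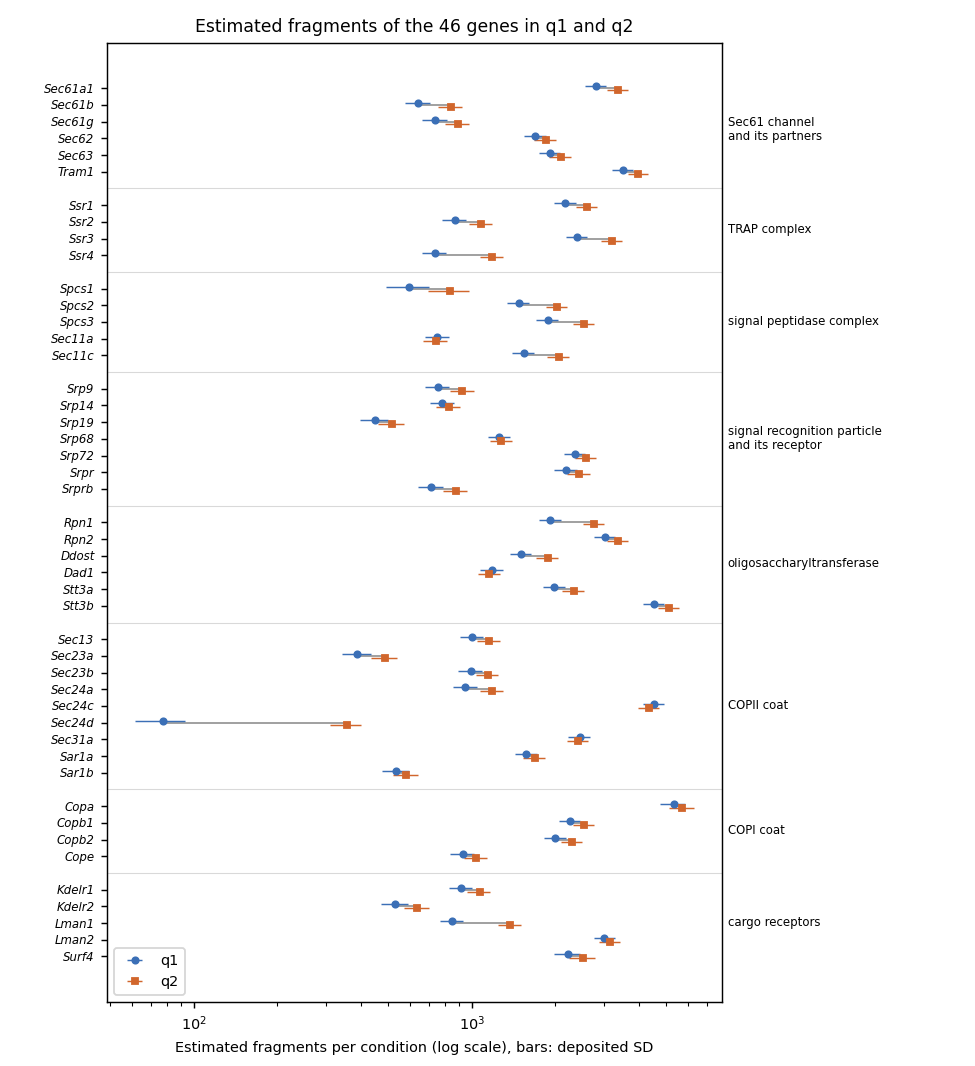
Estimated fragments of each of the 46 genes in q1 (circles) and q2 (squares), on a log scale, grouped by role. Bars are the deposited SD; most pairs lie close together with q2 to the right, and Sec24d, with 77.3 and 354 fragments, has the widest gap.

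Sec24d stood apart from the other 45 genes. It encodes a COPII subunit that binds cargo, and lies on chromosome 3 from 123267455 to 123365641 (GRCm38). It had 77.3 fragments in q1 (deposited SD 15.8) and 354 in q2 (SD 44.3), values that do not overlap within their SD. The log2 ratio was 2.18 ± 0.34, a 4.59-fold difference. A 95% counting interval that treats the pooled estimates as raw counts ran from 1.84 to 2.57. How the estimates were scaled is not stated, so the true coverage of such intervals is unknown. Among the 9582 genes compared, 27 had a larger ratio toward q2. Without Sec24d, 41 of 45 members were higher in q2 and the median log2 ratio was 0.20.

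The promoter of Sec24d holds the 8 letters TGACGTGG, which are known as the unfolded protein response element, a sequence recognised by XBP1 and ATF6. It is printed because Sec24d has the largest ratio of the set, and the promoter of its paralog Sec24c, whose fragments were nearly equal in the 2 columns, is set beside it. The sequences are from RefSeq (GRCm38.p6), run 5′ to 3′ on the gene's strand and cover 250 bases before to 50 bases after the RefSeq start. Capitals mark TGACGTGG in Sec24d and the shorter core GACGTG in Sec24c. The Sec24d window is chr3:123267246-123267545 and that of Sec24c is chr14:20674071-20674370, both on the plus strand.
Sec24d: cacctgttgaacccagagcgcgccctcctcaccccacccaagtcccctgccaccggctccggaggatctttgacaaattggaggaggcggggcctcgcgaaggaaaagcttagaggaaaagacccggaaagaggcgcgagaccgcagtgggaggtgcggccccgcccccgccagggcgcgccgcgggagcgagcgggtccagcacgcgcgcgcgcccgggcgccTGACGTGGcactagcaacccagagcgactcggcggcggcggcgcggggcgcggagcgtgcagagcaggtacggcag
Sec24c: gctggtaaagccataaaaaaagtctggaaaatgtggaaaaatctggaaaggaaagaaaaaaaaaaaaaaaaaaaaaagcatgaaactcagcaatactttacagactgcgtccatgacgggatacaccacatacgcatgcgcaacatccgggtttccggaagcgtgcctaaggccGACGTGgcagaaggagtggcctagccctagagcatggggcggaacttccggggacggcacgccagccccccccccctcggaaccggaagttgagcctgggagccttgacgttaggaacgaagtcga
In Sec24d the match lies 26 to 19 bases before the RefSeq start, inside the gene as GENCODE M21 annotates it from a start further upstream. In Sec24c the core lies 76 to 71 bases before it. A match of letters is a description and does not show that a factor binds there.

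TGACGTGG was also found, on either strand, in the promoters of Sec23a, Copb1 and Copb2. These windows of 68 bases, cut around the match, are shown because they are the remaining coat genes with the same 8 letters, in capitals, or their reverse complement CCACGTCA. They lie at chr12:59011974-59012041 on the minus strand (Sec23a), chr7:114254671-114254738 on the minus strand (Copb1) and chr9:98563694-98563761 on the plus strand (Copb2).
Sec23a: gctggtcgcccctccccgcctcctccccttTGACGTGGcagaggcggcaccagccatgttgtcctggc
Copb1: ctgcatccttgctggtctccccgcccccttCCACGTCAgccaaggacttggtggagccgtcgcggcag
Copb2: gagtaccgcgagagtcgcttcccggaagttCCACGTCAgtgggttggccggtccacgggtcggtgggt
The match lies before the RefSeq start in Copb1, ends at it in Copb2 and lies after it in Sec23a. Of the 46 members, 37 had a promoter in the RefSeq table. TGACGTGG stood in 4 of these 37, or 10.8%, beside 0.676% of all 32851 promoters in the table and 1.07% of the 7785 compared genes that had one. The 4 genes belong to the coats, and their log2 ratios ran from 0.16 to 2.18. GACGTG, which TGACGTGG contains, stood in 12 of 37 members (32.4%), beside 6.38% of all promoters and 11.4% of compared genes. Members with GACGTG had a median log2 ratio of 0.16 and those without it 0.22. The ER stress response elements, searched on both strands as CCAAT followed after any 9 bases by CCACG and as ATTGG followed after 1 base by CCACG, had 0 matches in the 37 windows, beside 0.119% and 0.037% of all promoters.

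The 7 genes of the signal recognition particle and its receptor differed little, all toward q2. Their median log2 ratio was 0.16, none was 25% higher, and 5 of 7 lay within 1 SD of equality. Srp9 and Srp14 encode the pair of proteins that halts elongation while the ribosome is brought to the membrane. Srp9 had 754 fragments in q1 and 925 in q2 (0.29 ± 0.20). Srp14 had 784 and 826, at 0.07 ± 0.20, and the partners' intervals of 1 SD overlap. Srp19, which assembles the particle's RNA, had 448 and 515 fragments, at 0.20 ± 0.23. The large subunits Srp68 and Srp72 bind each other: Srp68 had 1258 and 1279 fragments, at 0.02 ± 0.19, and Srp72 had 2345 and 2574, at 0.13 ± 0.18. The receptor that takes over the ribosome at the ER has an alpha chain from Srpr, with 2190 and 2440 fragments at 0.16 ± 0.19, and a beta chain from Srprb, with 715 and 875 at 0.29 ± 0.20.

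Genes of the Sec61 channel and its partners were all higher in q2, 6 of 6, with a median of 0.22. Sec61a1 encodes the pore itself and had 2808 fragments in q1 and 3349 in q2 (0.25 ± 0.18). The small subunits that clasp the pore gave 643 and 842 fragments for Sec61b, at 0.39 ± 0.21, and 737 and 890 for Sec61g, at 0.27 ± 0.20. The 3 channel subunits thus lay between 0.25 and 0.39, closer to each other than the SD of any of them. Sec62 and Sec63 help proteins that enter after their synthesis is complete, and both were nearer to equality. Sec62 had 1693 and 1844 fragments, at 0.12 ± 0.18, and Sec63 had 1909 and 2087, at 0.13 ± 0.18. Tram1, a membrane protein that helps signal sequences into the channel, had 3488 and 3979, at 0.19 ± 0.18.

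The translocon-associated protein (TRAP) complex, which sits beside the channel and assists weak signal sequences, had the second-highest group median, 0.36, and none of its 4 genes lay within 1 SD of equality. Ssr4, encoding the delta subunit (chromosome X, 73787028 to 73790830), had 736 fragments in q1 and 1183 in q2. Its ratio of 0.68 ± 0.20 was the third largest of the 46, after those of Sec24d and Lman1. Ssr3, the gamma subunit, had 2394 and 3184 fragments, at 0.41 ± 0.18. Ssr2, the beta subunit, had 867 and 1081, at 0.32 ± 0.20, and Ssr1, the alpha subunit, had 2171 and 2590, at 0.25 ± 0.18. Intervals of 1 SD overlap between neighbours in this order, but not between Ssr4 and Ssr1.

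Signal peptidase had the highest group median, 0.44, with 4 of 5 genes at least 25% higher in q2, beside 6.90% of all genes. Spcs2 and Spcs3, accessory subunits of the peptidase, had 1477 and 2027 fragments (0.46 ± 0.18) and 1877 and 2539 fragments (0.44 ± 0.18). Spcs1, another accessory subunit, had 596 and 835, at 0.49 ± 0.35. The deposited coefficient of variation of Spcs1 in q1 was 1.65 times the running median of genes with like counts, and the gene overlaps Glt8d1 on the opposite strand. The catalytic subunits are alternatives, and their ratios were apart. Sec11c had 1538 fragments in q1 and 2054 in q2 (0.42 ± 0.18), whereas Sec11a had 753 and 742, at -0.02 ± 0.21. The ratio of Sec11c exceeded that of Sec11a by 0.44 ± 0.28, or 1.60 SD of the difference.

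Among the 6 oligosaccharyltransferase genes, whose products attach N-linked glycans to the entering chain, 5 were higher in q2 and the median was 0.20. Rpn1 encodes ribophorin I, a subunit that presents substrates to the catalytic centre (chromosome 6, 88084482 to 88105304). It had 1919 fragments in q1 and 2743 in q2 (0.52 ± 0.18), which is the fourth largest ratio of the 46. Ribophorin II, from Rpn2, had 3015 and 3353 fragments, at 0.15 ± 0.18. Ddost, a further non-catalytic subunit, had 1504 and 1875, at 0.32 ± 0.18. Dad1, a small subunit first known as a defender against cell death, had 1184 and 1158, at -0.03 ± 0.19. The alternative catalytic subunits were close in ratio: Stt3a, which works beside the channel, had 1984 and 2325 fragments, at 0.23 ± 0.18, and Stt3b, which acts on sites that were skipped, had 4526 and 5105, at 0.17 ± 0.18.

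**Figure D2:**
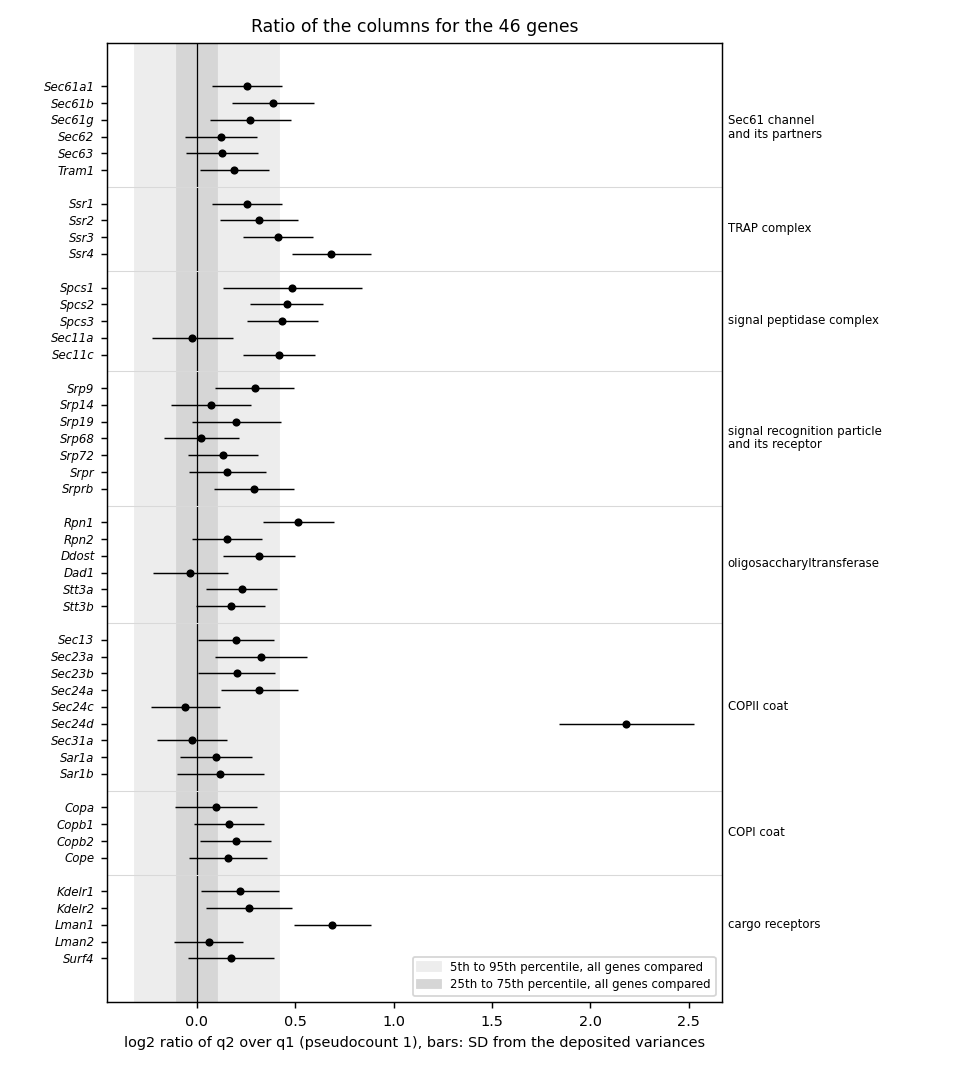
The log2 ratio of q2 over q1 for each of the 46 genes, grouped by role, with bars for the SD from the deposited variances and shading for the middle 50% and 90% of all genes compared. TRAP and signal peptidase genes lie mostly right of the middle 50%, as do most of the 46 genes, while 4 genes (Sec11a, Dad1, Sec24c and Sec31a) lie just left of 0.

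The COPII coat, which buds cargo from the ER, was mostly higher in q2, in 7 of its 9 genes. Ratios ran from -0.06 to 2.18, and from -0.06 to 0.33 without Sec24d. The GTPases that start the coat, Sar1a and Sar1b, were near equality, with 1570 and 1682 fragments (0.10 ± 0.18) and 534 and 581 fragments (0.12 ± 0.22). In the inner layer, Sec23a had 387 and 486 fragments, at 0.33 ± 0.23, and Sec23b, its close paralog, had 991 and 1140, at 0.20 ± 0.19. The outer cage is made of Sec13, with 1004 and 1153 fragments at 0.20 ± 0.19, and Sec31a, with 2442 and 2404 at -0.02 ± 0.18. Sec24a, like Sec24d a cargo-binding subunit, had 949 and 1184 fragments, at 0.32 ± 0.20. Sec24c had 4511 and 4333, at -0.06 ± 0.18, the lowest ratio of the 46. Sec24a and Sar1b are divergent neighbours on chromosome 11, with annotated GENCODE starts 53 bases apart, and the intervals of 1 SD around their ratios overlap.

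Within the Sec24 family the 2 most abundant genes, Sec24c and Sec24b, were near equality and the scarcest, Sec24d, had the largest ratio. Sec24b, which is not a member of the set, had 2041 and 2037 fragments. Per length of transcript, Sec24c was the highest in both columns, at an FPKM (fragments per kb of transcript, scaled by the column total) of 59.9 in q1 and 58.3 in q2, and Sec24d the lowest, at 1.17 and 5.45. Sec24d supplied 1.02% of the family's fragments in q1 (95% binomial interval 0.806% to 1.27%) and 4.48% in q2 (4.04% to 4.96%). These intervals treat the estimates as raw counts and cover counting error only. Per length, the share of Sec24d was 1.26% and 5.54%. The sum over the family had 7579 fragments for q1 and 7908 for q2. The ratio of Sec24d exceeded that of Sec24c by 2.24 ± 0.38.

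**Figure D3:**
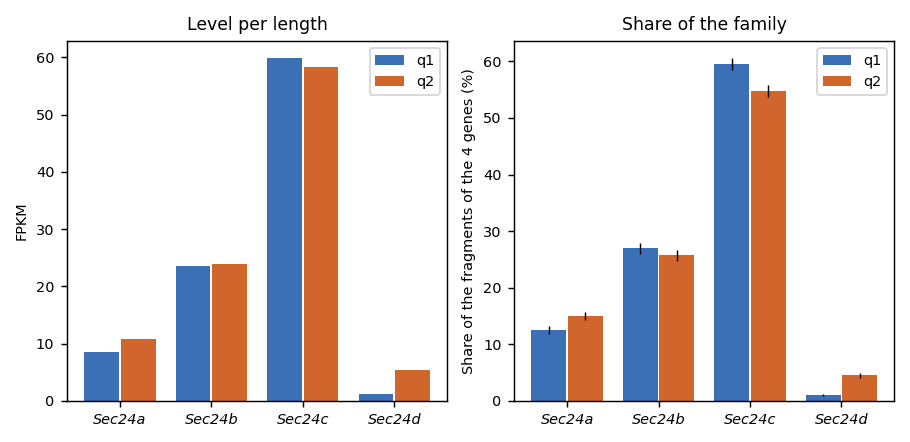
Levels of the 4 Sec24 genes in q1 and q2. Left: FPKM, the level per length of transcript. Right: share of the family's fragments in percent, with bars for 95% binomial intervals that treat the estimates as raw counts. Sec24d has 1.02% of the fragments in q1 and 4.48% in q2, and Sec24c has 59.5% and 54.8%.

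Most paralogs other than Sec24c and Sec24d had similar ratios. Over the 7 pairs compared, the difference between the log2 ratios was below 1 SD for Sar1, Sec23, Stt3 and Kdelr, 1.60 SD for Sec11, 2.39 SD for Lman and 5.84 SD for Sec24. As shares per length of transcript, Sec11c made up 76.2% of the Sec11 pair in q1 and 81.2% in q2, and Stt3b made up 76.0% and 75.3% of the Stt3 pair.

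The 4 COPI coat genes of the set were close in ratio. All 4 were higher in q2, with log2 ratios from 0.10 to 0.20, none by as much as 25%, and 3 within 1 SD of equality. The coatomer subunit genes were Copa, with 5323 fragments in q1 and 5697 in q2 (0.10 ± 0.21), and Copb1, with 2254 and 2526 (0.16 ± 0.18). Copb2 had 1999 and 2295, at 0.20 ± 0.18, and Cope, the smallest of these subunits, had 926 and 1034, at 0.16 ± 0.20. Coatomer genes outside the set that passed the minimum spread further. Copg1 stood at -0.02 ± 0.18, Copz1 at -0.01 ± 0.19, Copg2 at -0.24 ± 0.18 and Arcn1 at 0.24 ± 0.18.

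Of the 5 cargo receptor genes all were higher in q2, led by Lman1. Lman1 encodes ERGIC-53, a lectin that carries glycoproteins out of the ER and is also used by immunoglobulin M. It had 850 fragments in q1 and 1370 in q2 (0.69 ± 0.19), or 1.61-fold, the largest ratio after Sec24d. Lman2, encoding the related lectin VIP36, had 3003 and 3132, at 0.06 ± 0.18, a log2 ratio that differs from Lman1 by -0.63 ± 0.26. The KDEL receptors return ER chaperones from the Golgi: Kdelr1 had 915 and 1067 fragments, at 0.22 ± 0.20, and Kdelr2 had 531 and 638, at 0.27 ± 0.22. Surf4, a receptor for soluble secreted proteins, had 2219 and 2504, at 0.17 ± 0.22.

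The part of the route up to the ER lumen and the part beyond it were both mostly higher in q2. Of 28 genes for targeting, translocation, signal cleavage and glycosylation, 26 were higher in q2, with a median of 0.25. Of 18 coat and cargo receptor genes, 16 were higher in q2, with a median of 0.19. In both columns the members were expressed above the middle of all genes per length, with median FPKM of 34.6 and 43.1 against 14.7 and 15.1. Sec11c was the highest member per length in each column, at 106 and 143. These levels rest on the length of the longest coding transcript in GENCODE M21 and would shift with another isoform.

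Further genes of the same route had a median ratio nearer to 0, a difference from the members that was not tested. A list of 97 further translocation, coat, p24, ERGIC and fusion genes had 96 in the table and 91 with at least 100 fragments. Of these, 60 were higher in q2 and the other 31 in q1. Their median was 0.05. By at least 25%, 10 of the 91 were higher in q2, beside 6.90% of all genes, and 0 were so in q1, beside 4.59%. Other translocation and glycosylation genes had a median of 0.09 over 26 genes. Their largest ratios were those of Tram2, with 70.1 and 151 fragments at 1.10 ± 0.38, and of Hspa13, at 0.58 ± 0.22, followed by the oligosaccharyltransferase subunits Krtcap2, at 0.48 ± 0.23, and Ostc, at 0.42 ± 0.20. Other COPII genes had a median of 0.01 over 13 genes, all within 1 SD of equality, with Sec31b at -0.25 ± 0.34 as the largest. Other COPI genes had a median of -0.01 over 11. Arfgap3, whose product promotes GTP hydrolysis by ARF1 on the coat, had 171 and 291 fragments, at 0.76 ± 0.29, and the coatomer gene Arcn1 stood at 0.24 ± 0.18, while the coatomer gene Copg2 stood at -0.24 ± 0.18. The p24 family, ERGIC and fusion genes had a median of 0.06 over 41, and 0 of them lay more than 2 SD from equality. The largest ratios there were those of the fusion protein gene Bet1, at 0.40 ± 0.27, Yipf5, at 0.35 ± 0.22, the TRAPP complex gene Trappc5, at 0.32 ± 0.21, and the p24 gene Tmed2, at 0.29 ± 0.18.

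**Figure D4:**
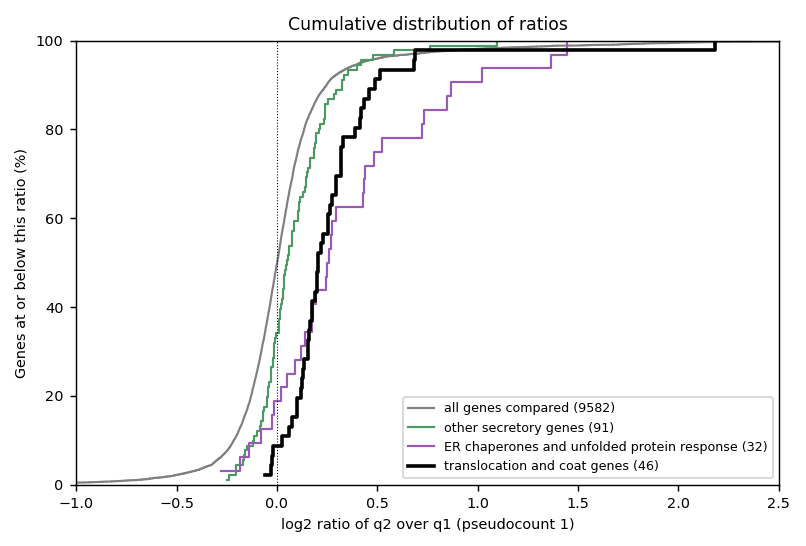
Cumulative share of genes, in percent, at or below each log2 ratio of q2 over q1, for the 46 translocation and coat genes, 91 other secretory genes, 32 ER chaperone and unfolded protein response genes and all 9582 genes compared. The axis ends at -1 and 2.5, and 4 of the 46 genes lie below 0.

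ER chaperone and unfolded protein response genes, the list most like this one, were shifted to a similar extent at the median. Of 32 such genes 26 were higher in q2, with a median of 0.25. By at least 25%, 12 of them were higher, beside 6.90% of all genes. Their upper end reached further than that of the members other than Sec24d. The highest was Creld2, an ER stress-inducible gene, with 503 and 1373 fragments, at 1.45 ± 0.21. Derl3, an ER degradation factor, had 300.4 and 776 fragments, at 1.37 ± 0.24. Xbp1, a transcription factor of the unfolded protein response, had 2142 and 4354, at 1.02 ± 0.18, and Manf had 914 and 1670, at 0.87 ± 0.19.

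Markers of other cell states also differed between the columns, and their part in the result was not tested. Plasma cell markers were higher in q2 in 4 of the 4 genes above 100 fragments, beside 50.2% of all genes compared. The sum of the 5 listed markers was 4720 fragments in q1 and 35450 in q2, most of them from Igj. Prdm1 had 388 and 461, at 0.25 ± 0.24, and Slamf7 had 1050 and 1438, at 0.45 ± 0.19. In a wider list of plasma cell genes, 13 of 14 were higher in q2, while Irf4 was higher in q1, at -0.28 ± 0.18. Of these 14, 2 lay within 1 SD of equality. That list repeats the plasma cell markers and shares genes such as Xbp1, Derl3 and Creld2 with the ER chaperone list, so the counts are not separate observations. Sdc1, with 43.9 and 484 fragments, passed the minimum through q2 only. No marker listed for any cell type and found in the table was at 0 in both columns. Germinal center genes were higher in q2 in 10 of 10 that passed the minimum, most of them only through q2. The 11 listed summed to 1931 and 8124, of which Mki67 alone supplied 1190 and 4991. All 9 marginal zone markers and all 6 general B cell markers were present in both columns, none below 888 fragments. The q1 value was the larger for 8 marginal zone markers; it exceeded q2 by at least 25% for 5 and by more than 2 SD for 4, beside 4.59% and 2.11% of all genes. Those 4 were Cd9, with 1608 and 888 fragments, Asb2, with 2196 and 1241, Cd1d1, with 5917 and 3468, and S1pr3, with 8560 and 5576. The marginal zone markers summed to 152528 and 128061, and to 71361 and 57210 without Cr2, the most abundant. Of the general B cell markers 5 were higher in q1, all 6 within 1 SD of equality, with sums of 175328 and 168027. T cell markers summed to 2011 and 2214, of which Cd2 supplied 1740 and 1859; the other 7 summed to 272 and 355, Cd3e among them with 22.8 and 36.4. Macrophage and monocyte markers went both ways, with sums of 1366 and 977. Of the 7 above 100 fragments, Csf1r (188 and 78.8), Vcam1 (188 and 70.5), Slc40a1 (184 and 64.8) and Hmox1 (212 and 88.3) were at least 2-fold higher in q1, beside 0.438% of all genes, and Cd68 (184 and 162) was within 1 SD. Ly6c2 (59.4 and 208) and Emr1 (85.8 and 146) were higher in q2. Markers of NK cells summed to 322 and 275, of neutrophils to 17.8 and 25.6, of erythroid cells to 59.4 and 57.2 and of dendritic cells to 227 and 385.

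The ratios were set against properties of the transcripts. Across the 46 genes Spearman's rho of the log2 ratio was -0.14 with transcript length, -0.07 with GC content and -0.33 with mean fragments. Across 9529 genes with an annotated transcript these were 0.02, -0.32 and -0.03. These are descriptions across genes of the same 2 columns, which share libraries and depth. After correction for all 3 properties the members' median was 0.21, and Sec31a turned from -0.02 to 0.015. Of the 46 genes, 10 overlap another protein-coding gene in GENCODE M21, and 9 of these were higher in q2, with a median of 0.20, the same to 2 decimals as in the other 36. Copa, Surf4 and Srpr also had a raised deposited coefficient of variation in q1, as Spcs1 did. It was 1.19 times the running median for Copa, which overlaps Ncstn, and 1.23 times for Surf4, which overlaps Surf2. For Srpr, which overlaps 3 genes on the opposite strand, it was 1.08 times. Whether the counting used strand is not given in the sources used here, so fragments of such neighbours may not be fully separated.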

How the data were processed

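RNA was extracted with Trizol and prepared for sequencing with a TruSeq RNA kit, per the labels' protocols. Per the submitters' processing notes, cutadapt 1.8.1, TopHat2 2.0.14, Cuffdiff 2.2.1 and the mm10 build were used; for annotation, filters and strand the sources used here give nothing. The authors deposited estimated counts of fragments, 1 per gene and condition, with variances; the part for isoform assignment was 0 in every row. The q1 column summed to 16877559 and q2 to 16653774; depth per library is unknown.

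Ratios were log2((q2 + 1)/(q1 + 1)) for genes reaching 100 fragments in at least 1 column, which understates changes of low genes. SDs were first-order estimates based on the deposited variances; whether these refer to a library or to a condition is not stated. No test was made. Transcript lengths, GC content and positions came from GENCODE M21 (GRCm38), matched by symbol or RefSeq synonym for 23623 genes and all 46 members; promoters came from RefSeq. Calculations used Python 3.11.15 and pandas 2.3.3 and were tested on simulated data. The members and lists were chosen with earlier results of these data known. All 46 members are named. Other genes are the up to 4 largest absolute ratios of a list, or were chosen after their values were seen. The latter are Sec24b, Copg1, Copz1, Irf4 and the named markers of cell types and states. Alternatives were minimums of 20 and 500, pseudocounts of 0 and 10, and 2 scalings; the correction for GC content, length and level and the removal of Sec24d were added after seeing the data.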

Additional observations from a re-analysis of the deposited data

How the results depend on the processing

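No paired analysis was possible because each condition has a single pooled value without replicate numbers; for the same reason no library was left out and no count test was run. Of 46 members, between 40 (of the 44 left with a minimum of 500 fragments) and 43 (corrected for GC content, length and level) were higher in q2 under the alternatives run, and between 9 and 14 were at least 25% higher, with 0 at least 25% higher in q1 in each. The count at least 2-fold apart became 0 with a minimum of 500 fragments and 0 without Sec24d, since Sec24d was then not compared. The median log2 ratio became 0.22 with columns scaled to equal totals, which moves the median of all genes to 0.020, and lay between 0.1998 and 0.207 otherwise. Of 230 recomputed ratios of single members, 229 stayed within the counting interval of the ratio with their sign. The 2 scalings shift every ratio by nearly the same amount, and the pseudocounts move well-counted genes little. Those ratios could hardly leave the interval. Of the 46 ratios corrected for GC content, length and level, 45 stayed. Sec31a reversed to 0.015 when corrected, and the cause was not tested. Depth limits Sec24d most, at 77.3 fragments in q1.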
